A study of Mus musculus with 21 samples.

Results

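The oligoadenylate synthetases are represented here by the 7 genes Oas1a, Oas1b, Oas1g, Oas2, Oas3, Oasl1 and Oasl2, of 24454 genes in the deposited count table of RNA sequencing from mouse embryonic fibroblasts (MEFs). The rows were found by gene symbol, and the genes had been chosen by their measured levels in all 7 groups of cells. Their levels and differences are therefore given as a description, without a p-value. Where members are counted as called, that is, past an adjusted p of 0.01, the count only stands beside the share of all genes called, and nothing is read from it in any comparison. The share of all genes without overlap between groups was not counted, so nothing is read from the number of members without overlap either. The table held 21 libraries, 3 per group, with 32069888 to 51938593 counts each. Levels of one gene were compared between libraries as CPM, the count scaled to the library total after TMM normalization, which adjusts each total by a trimmed mean ratio to the other libraries. Levels of different genes were compared as the deposited TPM, which take transcript length into account. A value after ± is the SD of 3 libraries, and the error of a log2 difference is its standard error (SE).

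Rtel1F/F +GFP cells carried floxed Rtel1, the gene of a helicase that unwinds G4-DNA and telomeric t-loops, and were infected with an adenovirus expressing GFP. Rtel1F/F +Cre cells received the Cre-GFP adenovirus, which deletes the floxed alleles, and all cells were collected 96 h after infection. Rtel1F/F +GFP +TMPyP4 cells received the GFP virus and, for the last 48 h, 10 μM of the G4-DNA-stabilizing ligand TMPyP4. RTEL1 CA +GFP and RTEL1 CA +Cre cells were Rtel1F/F cells that express the mutant RTEL1 C1252A/C1255A from a pBabe vector, with either virus. Terf1F/F +GFP and Terf1F/F +Cre cells carried floxed Terf1, the gene of the shelterin protein TRF1, with either virus. Values given as before and after Cre or deletion are those of separate +GFP and +Cre libraries, not of the same cells over time. No group was without adenovirus, and the Terf1F/F and Rtel1F/F cells were different lines, so that line, derivation and any difference in handling cannot be told apart between them. Cre was given only to cells with floxed alleles, so Cre itself and loss of the floxed gene cannot be told apart. The labels call the libraries of a group biological replicates but do not say whether they came from separate embryos, so p-values measure only the spread between these libraries.

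Both targeted genes were lower after Cre, as labelled, but Rtel1 only in part, to 0.477 of its mean in Rtel1F/F +GFP cells. RNA left from deleted alleles and incomplete deletion cannot be told apart in this row. Rtel1 was at 26.8 to 31.9 CPM in Rtel1F/F +Cre and at 59.1 to 66.2 CPM in Rtel1F/F +GFP libraries, and Terf1 had 1 to 5 counts in Terf1F/F +Cre and 1204 to 1288 counts in Terf1F/F +GFP libraries. The Rtel1 row of RTEL1 CA cells also holds RNA from the vector (253 to 338 CPM), so the deletion could not be checked there. Fibroblast markers summed to between 4781 and 20761 CPM in every library, and the macrophage markers Adgre1 and Tyrobp had no count in any. Summed levels of all 8 macrophage markers were 4.78 to 6.84 CPM in the 6 Terf1F/F libraries and 1.60 to 3.80 CPM in the 15 Rtel1F/F libraries, with Cd68 the most abundant. Thy1, a fibroblast surface protein, was at 222 to 269 CPM in Terf1F/F libraries but at no more than 0.490 CPM in Rtel1F/F libraries. The share of these markers in the results below was not tested.

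Oligoadenylate synthetases bind double-stranded RNA and join ATP into 2′-5′-linked oligoadenylates (2-5A). 2-5A acts as a second messenger of antiviral defence in the cell, and phosphodiesterases degrade it again. Fibroblasts keep the genes low until type I interferon, signalling through its receptor and the ISGF3 complex of transcription factors, switches them on at interferon-stimulated response elements (ISREs). Mice hold a larger set of Oas1 copies than humans do.

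The 7 genes lie on chromosome 5 in the RefSeq annotation of GRCm38.p6. Oasl2 (114896926 to 114912245) and Oasl1 (114923143 to 114937911) stand next to each other, and the other 5 fall in a cluster from 120730333 to 120921648. In the order of the chromosome, the cluster holds Oas2 (120730333 to 120749886), Oas3 (120753098 to 120777684), Oas1b (120812635 to 120824163), Oas1g (120876142 to 120887613) and Oas1a (120896256 to 120907544), with Oas1c, Oas1d, Oas1e, Oas1f and Oas1h among them. RefSeq lists Oas1b, whose product is truncated in most laboratory strains, as a transcribed pseudogene.

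The stretches before the start sites of Oas1a, Oas1g and Oas3 are shown because these are the 3 of the 5 members with a RefSeq promoter entry that held the core letters of an ISRE, GAAANNGAAA, searched on both strands from 250 bases before to 50 after the start. Oas1b and Oas2 had no entry. Each stretch has 110 bases, is read 5′ to 3′ on the strand of the gene and ends at the base before the start in the promoter entry. Capitals mark the motif. This start lies inside the gene range given above for Oas1a (120907525), Oas3 (120777659) and Oasl2 (114896934), so their stretches overlap that range at the 3′ end. In Oas1a most of the capitals fall within it. Oasl2 is shown as a member without it.
Oas1a (chr5:120907526-120907635, minus strand): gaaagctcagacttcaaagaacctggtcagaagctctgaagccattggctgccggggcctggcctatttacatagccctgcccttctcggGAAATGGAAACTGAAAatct
Oas1g (chr5:120887614-120887723, minus strand): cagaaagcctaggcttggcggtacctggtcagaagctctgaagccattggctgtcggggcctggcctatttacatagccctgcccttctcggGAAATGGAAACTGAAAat
Oas3 (chr5:120777660-120777769, minus strand): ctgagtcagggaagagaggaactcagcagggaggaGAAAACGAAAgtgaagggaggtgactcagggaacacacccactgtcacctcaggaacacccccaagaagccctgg
Oasl2 (chr5:114896824-114896933, plus strand): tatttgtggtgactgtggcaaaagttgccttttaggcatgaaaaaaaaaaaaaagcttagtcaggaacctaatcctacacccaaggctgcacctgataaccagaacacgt

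In Oas1a and Oas1g the capitals hold 2 overlapping copies of the motif. By the start in the promoter entry, they reach from 20 to 5 bases before that of Oas1a and from 18 to 3 bases before that of Oas1g. In Oas3 a single copy lies 75 to 66 bases before the start. Of 32851 RefSeq promoters of the same length, 3.44% held the letters, and so did 7 of 23 promoters of the genes described below as acting with the synthetases. The 250 bases before Oas1a and Oas1g were identical at 82.8% of aligned positions, and those of the other pairs at 41.5% to 48.2%. Because the study is about G4-DNA, 4 runs of GGG with 1 to 7 bases between them were also searched on both strands. They were in 0 of the 5 members' promoters and in 18.5% of all promoters. The study predicted G4-DNA by another method and over a longer stretch around the start. A promoter without these runs may therefore hold G4-DNA by the study's measure.

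Oas1a and Oas1g also share transcript sequence. Of all windows of 75 bases in GENCODE transcripts, 47.6% of those of Oas1a and 36.9% of those of Oas1g occurred in the other gene, and at 101 bases these shares were 40.6% and 31.0%. The study's methods and the labels give these different read lengths. The split of reads between Oas1a and Oas1g therefore rests on the estimate made by RSEM, while the other 5 members shared no window with another Oas or Oasl gene at either length.

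The members stood far apart between the lines. In the Terf1F/F +GFP libraries Oas1a, which makes 2-5A, had 3608, 3929 and 3603 counts, against 3, 7 and 8 counts in the Rtel1F/F +GFP libraries and no more than 8 counts in any of the 15 Rtel1F/F libraries. Oas1g had 676, 669 and 630 counts in Terf1F/F +GFP cells, and 0 counts in 14 of the 15 Rtel1F/F libraries. Oas1b had 801, 882 and 890 counts against 15, 25 and 27. No library of either line overlapped with the other line for any of these 3 genes.

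Oas2, whose product holds a pair of linked synthetase units, had 1445, 1432 and 1696 counts in Terf1F/F +GFP libraries and 6, 3 and 4 counts in Rtel1F/F +GFP libraries. Oas3, the longest of the family and able to bind long double-stranded RNA, had 246, 241 and 229 counts against 3, 4 and 1. These genes too were near the limit of detection in the Rtel1F/F line, since a count of 0 allows up to 3 counts per library, which is 0.0628 CPM on average over the Rtel1F/F +GFP libraries. In bulk RNA, fewer cells that express a gene and less RNA per cell cannot be told apart.

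The 2 Oasl genes were measurable in every library. Oasl2, a synthetase-like gene with a ubiquitin-like tail, was at 277, 304 and 350 CPM in Terf1F/F +GFP libraries and at 12.0, 12.0 and 11.7 CPM in Rtel1F/F +GFP libraries. Oasl1, which makes no 2-5A and represses the translation of the interferon regulator IRF7, was at 31.5, 32.4 and 33.5 CPM against 5.19, 3.66 and 3.99 CPM. The members thus differed widely in how far apart the lines stood.

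**Figure D1:**
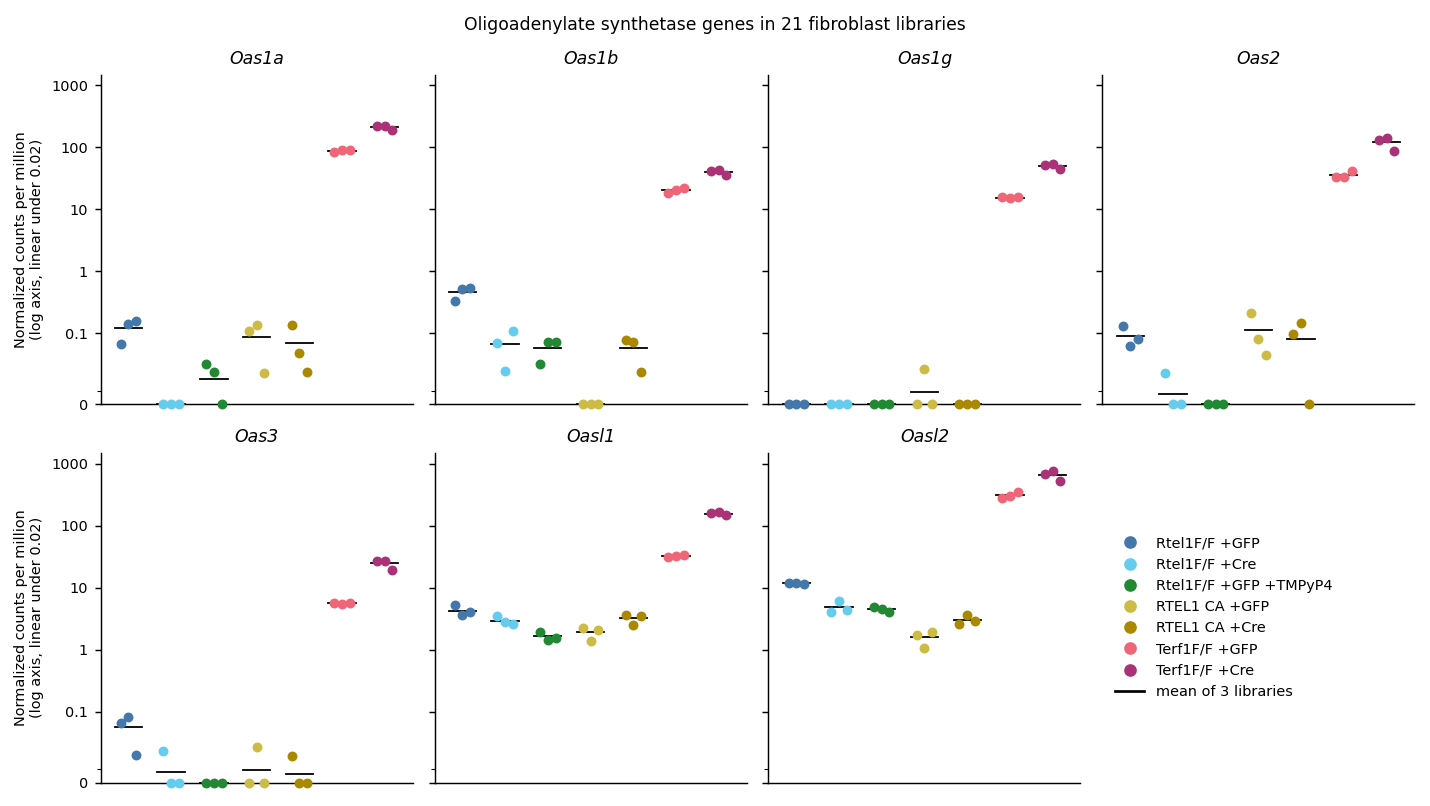
Normalized CPM of the 7 members in each of 21 libraries, on a log axis that is linear under 0.02 CPM, with 1 point per library and a line at the mean of 3. The Terf1F/F +GFP and +Cre libraries lie above every Rtel1F/F library in all 7 panels, and Oas1g is at 0 in 14 of the 15 Rtel1F/F libraries.

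As ratios of mean CPM, Terf1F/F +GFP over Rtel1F/F +GFP, the lines differed least for Oasl1 (7.59-fold, 95% interval 7.01 to 8.23) and for Oasl2 (26.1-fold, 24.9 to 27.4). Oas1b followed at 43.9-fold (34.6 to 56.6), then Oas3 at 100.1-fold (50.8 to 232, from 8 counts in all 3 Rtel1F/F +GFP libraries), Oas2 at 394-fold (230 to 740) and Oas1a at 710-fold (449 to 1198). These intervals come from the Rtel1F/F +GFP counts and cover counting error only. For Oas1g, at 0 in all 3 Rtel1F/F +GFP libraries, the level was at least 248-fold higher, with 3 counts per library as the floor. The comparison of the lines was added after the data had been seen. All 7 members were past an adjusted p of 0.01 in it, as were 54.9% of the 13719 genes tested. Oas1a, Oas1g, Oas2 and Oas3 were abundant enough to be tested only through the Terf1F/F libraries.

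Of the other 5 family rows, Oas1c had 189 to 485 counts in Terf1F/F libraries and 0 to 12 in Rtel1F/F libraries. Oas1d reached 11 counts, Oas1f 5 and Oas1e 3 in a library, and Oas1h had none in any.

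Summed over all 12 rows, the family stood at 13.3 ± 0.644 TPM in Rtel1F/F +GFP and at 405 ± 34.8 TPM in Terf1F/F +GFP cells (n = 3 each). It was made up differently. In Rtel1F/F +GFP cells Oasl2 gave 60.4% ± 2.66 of the sum and Oasl1 32.7% ± 4.55, leaving little to the other genes. In Terf1F/F +GFP cells Oasl2 gave 50.6% ± 1.81, Oas1a 24.8% ± 1.41 and Oasl1 8.07% ± 0.41, followed by Oas1b (5.91%), Oas2 (4.73%), Oas1g (4.08%) and Oas3 (0.60%).

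After Terf1 deletion the sum was 1005 ± 127 TPM, and every member was higher in each Terf1F/F +Cre library than in each Terf1F/F +GFP library. The share of all genes that separated in this way was not counted. The deletion removes TRF1 from telomeres and was included in the study as a cause of telomere fragility. Oasl1 differed most among the members, at 160, 164 and 149 CPM after Cre against 31.5, 32.4 and 33.5 CPM before (4.85-fold, log2 2.28, SE 0.15). Oas3 was at 27.3, 27.2 and 19.3 CPM after Cre against 5.71, 5.54 and 5.68 CPM (4.36-fold, log2 2.13, SE 0.19). Both genes had a wide gap between the groups.

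Oas2 was at 133, 141 and 88.6 CPM after Cre against 33.5, 32.9 and 42.1 CPM (3.34-fold, log2 1.74, SE 0.22). Oas1g was at 52.5, 53.6 and 44.4 CPM against 15.7, 15.4 and 15.6 CPM (3.22-fold, log2 1.69, SE 0.13), and Oas1a at 224, 223 and 189 CPM against 83.7, 90.3 and 89.4 CPM (2.42-fold, log2 1.27, SE 0.14). The 2 values were not tested against each other, and reads of shared sequence could have been moved between these genes. Summed with the other Oas1 rows, the log2 difference was 1.27.

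Oasl2, the most abundant member, was at 689, 771 and 530 CPM after Cre against 277, 304 and 350 CPM (2.13-fold, log2 1.09, SE 0.17), and Oas1b was at 41.2, 43.7 and 35.8 CPM against 18.6, 20.3 and 22.1 CPM (1.98-fold, log2 0.99, SE 0.14). Replicate 3 was the lowest Terf1F/F +Cre library for all 7 members, and without any single library the log2 differences stayed between 0.92 for Oas1b and 2.31 for Oasl1. All 7 members were past an adjusted p of 0.01, where 3.42% of all tested genes were. The summed endothelial markers went from 2.16 to 2.64 CPM before to 3.85 to 4.45 CPM after Cre, most of it Kdr, with Pecam1 at 6 counts or fewer in a library. The summed macrophage markers went from 4.78 to 5.88 CPM to 5.97 to 6.84 CPM, most of it Cd68, with Adgre1 and Tyrobp at 0 in every library. The summed epithelial markers went from 0.620 to 0.696 CPM to 0.834 to 0.964 CPM. None of these 3 sums overlapped between the groups, and their part in the result was not tested.

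Because the members differed in size of response, their shares of the family sum shifted. Oasl1 went from 8.07% ± 0.41 to 15.6% ± 1.41 of the TPM sum, and its 3 shares after Cre (14.5% to 17.2%) did not overlap with those before (7.65% to 8.46%). Oasl2 went from 50.6% ± 1.81 to 42.7% ± 2.21, also without overlap, and Oas3 from 0.60% ± 0.05 to 1.03% ± 0.07. For Oas1a the shares overlapped, at 23.2% to 25.7% before and 22.5% to 24.8% after Cre.

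**Figure D2:**
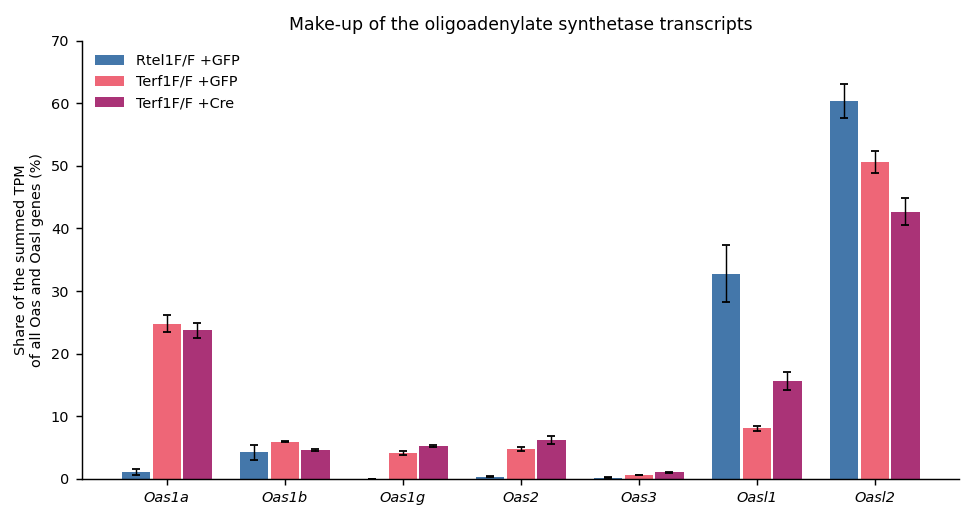
Share of the summed TPM of all Oas and Oasl genes that each member made up in Rtel1F/F +GFP, Terf1F/F +GFP and Terf1F/F +Cre cells, as bars of the mean over 3 libraries with SD. Oasl1 and Oasl2 made up most of the low sum in Rtel1F/F +GFP cells, Oas1a made up 24.8% and 23.7% in the Terf1F/F groups, and the Oasl1 share was 8.07% before and 15.6% after Terf1 deletion.

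In the Rtel1F/F line, Oasl1 and Oasl2 were the members with enough counts to be followed through all groups. The Rtel1F/F +GFP libraries stood above the other 12 Rtel1F/F libraries for Oasl2 and for Oasl1, as they did for summed fibroblast markers (13060 to 14021 CPM against 4781 to 9578 CPM). RTEL1 CA +GFP cells, which also keep their Rtel1 alleles, were among the lower ones. Both the comparison with Rtel1F/F +Cre and that with TMPyP4-treated cells use the same Rtel1F/F +GFP libraries.

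After Rtel1 deletion, Oasl2 was at 4.08, 6.03 and 4.45 CPM against 12.0, 12.0 and 11.7 CPM before, which is 2.45-fold lower (log2 -1.29, SE 0.18). Oasl1 was at 3.50, 2.80 and 2.57 CPM against 5.19, 3.66 and 3.99 CPM, 1.45-fold lower (log2 -0.53, SE 0.17). No +Cre library overlapped with a +GFP library for either gene. Oas1b had 3, 1 and 4 counts after Cre against 15, 25 and 27, and Oas1a had 0 counts in all 3 +Cre libraries against 3, 7 and 8. The remaining members had 0 to 6 counts per library in these groups. Of the 7 members Oas1a, Oas1b and Oasl2 were called lower and none higher, in a comparison where 43.0% of all tested genes were called.

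With TMPyP4, Oasl2 was at 4.85, 4.53 and 4.13 CPM, 2.64-fold lower than in Rtel1F/F +GFP cells (log2 -1.40, SE 0.18). Oasl1 was at 1.97, 1.45 and 1.53 CPM (log2 -1.39, SE 0.18). Oas1b had 1, 3 and 3 counts, and Oas1a had 1, 1 and 0. Oas1b, Oasl1 and Oasl2 were called lower, where 30.0% of tested genes were called, and nothing is read from this. Set directly against each other, deleted and TMPyP4-treated cells overlapped for Oasl2 (log2 0.11, SE 0.19), while Oasl1 was higher in every Rtel1F/F +Cre library, by 1.79-fold on average (log2 0.86, SE 0.19). Of the 7 members 1 was called, where 15.2% of tested genes were.

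RTEL1 CA +GFP cells had the lowest Oasl2, at 1.74, 1.09 and 1.96 CPM, which is 7.45-fold below Rtel1F/F +GFP cells (log2 -2.88, SE 0.20). Their Oasl1 was at 2.22, 1.38 and 2.10 CPM, 2.25-fold lower (log2 -1.16, SE 0.18), and Oas1b had 0 counts in all 3 libraries. These 3 members were called lower, in a comparison that called 44.7% of tested genes, and nothing is read from this. The mutant protein, the vector and its delivery cannot be told apart here.

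Cre in RTEL1 CA cells went with higher rather than lower Oasl levels. Oasl2 was at 2.59, 3.68 and 2.86 CPM after Cre, above RTEL1 CA +GFP cells by a log2 of 0.91 (SE 0.21), and Oasl1 at 3.59, 2.53 and 3.47 CPM, 1.68-fold above (log2 0.74, SE 0.18). No library overlapped for either gene. Neither difference was past the threshold, and 0 of 7 members were called, where 1.09% of tested genes were. The other members had 0 to 10 counts in these libraries.

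**Figure D3:**
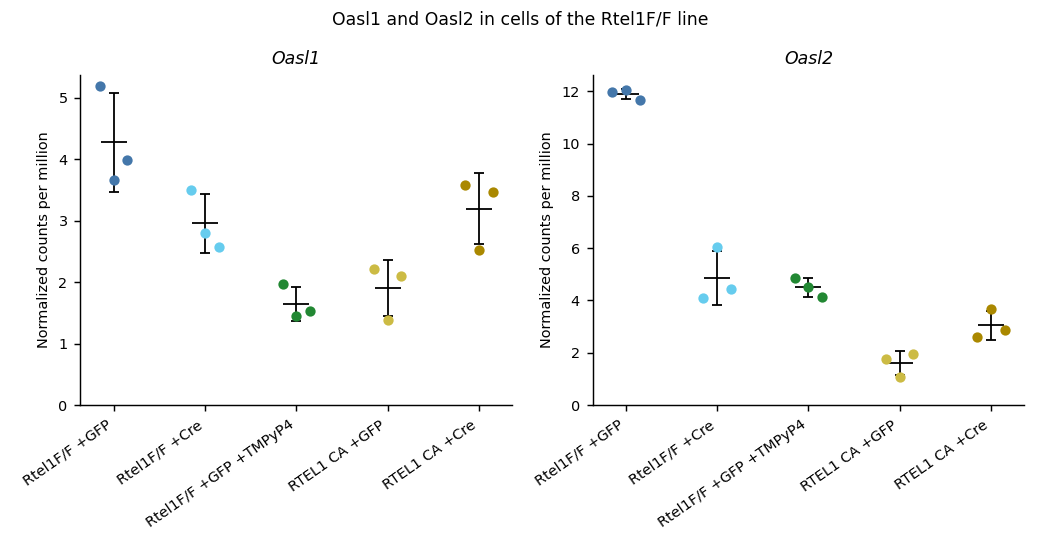
Normalized CPM of Oasl1 and Oasl2 in the 5 groups of the Rtel1F/F line, with 1 point per library, a mark at the mean and SD bars. Rtel1F/F +GFP libraries are highest for both genes, and RTEL1 CA +Cre libraries lie above RTEL1 CA +GFP libraries.

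By mean CPM, Oasl2 thus ordered the groups as Terf1F/F +Cre, Terf1F/F +GFP, Rtel1F/F +GFP, Rtel1F/F +Cre, TMPyP4, RTEL1 CA +Cre and RTEL1 CA +GFP, and of these neighbours Rtel1F/F +Cre and TMPyP4 overlapped. For Oasl1 the order was Terf1F/F +Cre, Terf1F/F +GFP, Rtel1F/F +GFP, RTEL1 CA +Cre, Rtel1F/F +Cre, RTEL1 CA +GFP and TMPyP4, with overlap between RTEL1 CA +Cre and Rtel1F/F +Cre and between RTEL1 CA +GFP and TMPyP4. In the other 5 members both Terf1F/F groups led, and nearly all neighbours among the Rtel1F/F groups overlapped.

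Summed over the family, the other Rtel1F/F groups stood at 5.45 ± 0.775 TPM after Rtel1 deletion, 4.22 ± 0.527 TPM with TMPyP4, 2.73 ± 0.601 TPM in RTEL1 CA +GFP and 4.66 ± 0.282 TPM in RTEL1 CA +Cre cells (n = 3 each). These sums follow Oasl1 and Oasl2, which make up most of them.

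**Figure D4:**
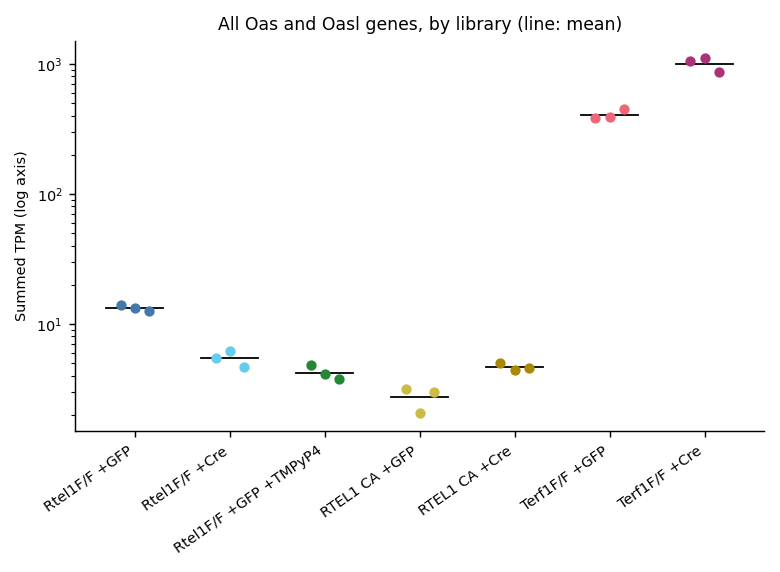
Summed TPM of all Oas and Oasl genes in each library, on a log axis, with 1 point per library and a line at the mean of 3. Terf1F/F +GFP libraries (mean 405 TPM) and Terf1F/F +Cre libraries (mean 1005 TPM) lie above every Rtel1F/F library, and among these the Rtel1F/F +GFP libraries are highest, at 12.6 to 13.9 TPM.

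Of genes that act after 2-5A has been made, Abce1, an ATPase of ribosome recycling, rose after Rtel1 deletion from 252 ± 43.9 to 510 ± 37.9 CPM (n = 3 each, log2 1.01, SE 0.09, adjusted p = 6.76e-08 by edgeR's quasi-likelihood test over all tested genes) and rose with TMPyP4 to 429 ± 11.4 CPM (log2 0.77, SE 0.09, adjusted p = 4.98e-06). It was also higher in RTEL1 CA +GFP cells (log2 1.19, SE 0.09, adjusted p = 1.06e-08). Pde12, a phosphodiesterase that degrades 2-5A, rose after Rtel1 deletion (log2 0.43, SE 0.10, adjusted p = 0.00166), although not without Rtel1F/F +Cre replicate 1 (adjusted p = 0.0110). Akap7, with a domain of the same activity, rose with TMPyP4 (log2 0.43, SE 0.12, adjusted p = 0.00754), a call lost in 8 of 13 alternatives, with adjusted p up to 0.0693. After Terf1 deletion none of these 3 genes was called, with log2 differences of -0.04 for Abce1, 0.13 for Pde12 and -0.12 for Akap7.

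Genes that act with the synthetases were followed in 5 lists of 26 genes that hold no member: these 3, 8 sensors and effectors of double-stranded nucleic acids, 6 genes of the interferon receptor and ISGF3, 5 interferon regulatory factors (IRFs) and 4 brakes or modifiers of the response. All 26 were tested. The lists were chosen with earlier results of these data known, so the numbers called are not independent of those results. After Terf1 deletion 14 of the 26 rose and none fell, with a median log2 difference of 0.68 against 0.00 over all tested genes. Among all tested genes 3.42% were called. The endothelial, macrophage and epithelial marker sums given above did not overlap in the same comparison, and their part was not tested.

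Sensors made up much of this number. After Terf1 deletion 7 of the 8 rose, and Mavs, the adaptor of the RNA helicase sensors, did not (log2 0.00, SE 0.07, adjusted p = 0.999). Zbp1, a sensor of Z-form nucleic acids, went from 28.2 ± 1.62 to 112 ± 25.1 CPM (n = 3 each, log2 1.98, SE 0.17, adjusted p = 7.19e-07). The RNA helicase genes Dhx58 (log2 1.48, adjusted p = 1.11e-06), Ifih1 (log2 1.32, adjusted p = 1.23e-06) and Ddx58 (log2 0.76, adjusted p = 4.87e-06) rose as well. So did Tlr3 (log2 1.51), the endosomal receptor, Adar (log2 0.71), which edits double-stranded RNA, and Eif2ak2 (log2 0.66), the kinase PKR.

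Among IRF genes 4 of 5 rose after Terf1 deletion. Irf7, the IRF that amplifies interferon production, went from 126 ± 7.25 to 411 ± 73.3 CPM (n = 3 each, log2 1.70, SE 0.19, adjusted p = 1.22e-05). Irf5 (log2 1.40, adjusted p = 8.39e-06) and Irf1 (log2 0.69, adjusted p = 9.35e-05) rose too, while the call of Irf2 (log2 0.37, adjusted p = 0.00634) was lost in 9 of 13 alternatives, with adjusted p between 0.000849 and 0.0914. Irf3, which is regulated through phosphorylation, was at log2 0.09 (SE 0.17, adjusted p = 0.866).

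Of the 6 receptor and ISGF3 genes Stat2 was the one that rose after Terf1 deletion, from 237 ± 23.8 to 425 ± 34.5 CPM (n = 3 each, log2 0.84, SE 0.09, adjusted p = 4.55e-06). Its partner in ISGF3, Irf9, was at log2 0.31 (SE 0.09, adjusted p = 0.0376), and the receptor chains Ifnar1 and Ifnar2 and the kinases Jak1 and Tyk2 lay between log2 -0.12 and 0.03, without a call. Among the brakes Usp18, which blocks the receptor, rose (log2 1.03, SE 0.11, adjusted p = 8.02e-06), as did Isg15, the ubiquitin-like modifier that USP18 removes (log2 0.87, SE 0.15, adjusted p = 0.00138), although not without Terf1F/F +GFP replicate 1 (adjusted p = 0.0117). Socs1 (log2 0.82, SE 0.27, adjusted p = 0.0902) and Socs3 (log2 -0.13, SE 0.15, adjusted p = 0.751) were not called.

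Of 21 interferon ligand genes in the table, Ifnb1 and Ifna4 reached 10 counts in a library. Ifnb1, the first interferon gene that fibroblasts switch on, had 8, 13 and 8 counts in Terf1F/F +GFP libraries. In Terf1F/F +Cre libraries it had 56, 89 and 35 counts (6.16-fold higher, log2 2.61, SE 0.44). Both ligand genes were abundant enough to be tested only through the Terf1F/F +Cre libraries, so their differences are a description, without a p-value. In the 15 Rtel1F/F libraries Ifnb1 had 0 to 3 counts. Ifna4 had 5, 5 and 7 counts before and 12, 24 and 17 counts after Terf1 deletion and none in any Rtel1F/F library.

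In the Rtel1F/F line the 26 genes went mostly the other way. After Rtel1 deletion 13 of the 26 fell and 3 rose (median log2 -0.42 against -0.03 over all tested genes, of which 43.0% were called). The deepest fall was that of Usp18, from 3.47 ± 0.273 to 0.465 ± 0.118 CPM (n = 3 each, log2 -2.89, SE 0.17, adjusted p = 4.09e-10), followed by Irf7, from 5.50 ± 1.03 to 0.956 ± 0.230 CPM (log2 -2.51, SE 0.25, adjusted p = 2.88e-07). Stat2 (log2 -1.10) and Irf9 (log2 -1.05), parts of ISGF3, both fell, with 5 of 6 genes of their list called lower. Of the sensors Adar, Ddx58 and Zbp1 fell and Mavs rose, the call of Zbp1 being lost in 6 of 12 alternatives (adjusted p up to 0.0333), while Eif2ak2 was at log2 0.03 (SE 0.09, adjusted p = 0.791). The lower levels of fibroblast markers given above moved with these falls, and their part in the result was not tested.

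With TMPyP4 the numbers were again 13 lower and 3 higher of 26 (median log2 -0.43 against -0.01 over all tested genes, of which 30.0% were called). Usp18 (log2 -2.26, SE 0.16, adjusted p = 1.71e-08) and Irf7 (log2 -1.99, SE 0.24, adjusted p = 6.77e-06) led here too, and all 4 brakes fell. These libraries were compared with the same Rtel1F/F +GFP cells as the deleted ones. Set directly against TMPyP4, the deleted cells had lower Stat2, Irf9, Ifnar1 and Ifnar2 and higher Ifih1 and Dhx58, 6 of 26 in all. These calls changed with the fit. DESeq2 called 7 of the 26. Leaving out Rtel1F/F +Cre replicate 3 or TMPyP4 replicate 3 left 2 calls each, and leaving out Rtel1F/F +Cre replicate 1 or TMPyP4 replicate 2 left 3 each. With edgeR on these 2 groups alone 0 were left, while 14 of the 26 had an unadjusted p of at most 0.05 in the fit of all libraries. The fits named here did not pair same-numbered libraries, which deviated together in these 2 groups.

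RTEL1 CA +GFP cells differed from Rtel1F/F +GFP cells in the same list at 19 of 26 genes, 17 lower and 2 higher (median log2 -0.72 against -0.03 over all tested genes, of which 44.7% were called), without any deletion of Rtel1. Irf7 (log2 -3.22, adjusted p = 3.73e-08), Usp18 (log2 -2.74, adjusted p = 5.63e-10) and Zbp1 (log2 -2.63, adjusted p = 5.62e-06) were lowest relative to the control. Cre in RTEL1 CA cells called 0 of the 26 in edgeR, where 8 had an unadjusted p of at most 0.05, all 8 higher, and DESeq2 called 2. These fits did not pair same-numbered libraries, which deviated together in the RTEL1 CA groups. Nearest to a call was Ifih1 (log2 0.58, SE 0.13, adjusted p = 0.0162).

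**Figure D5:**
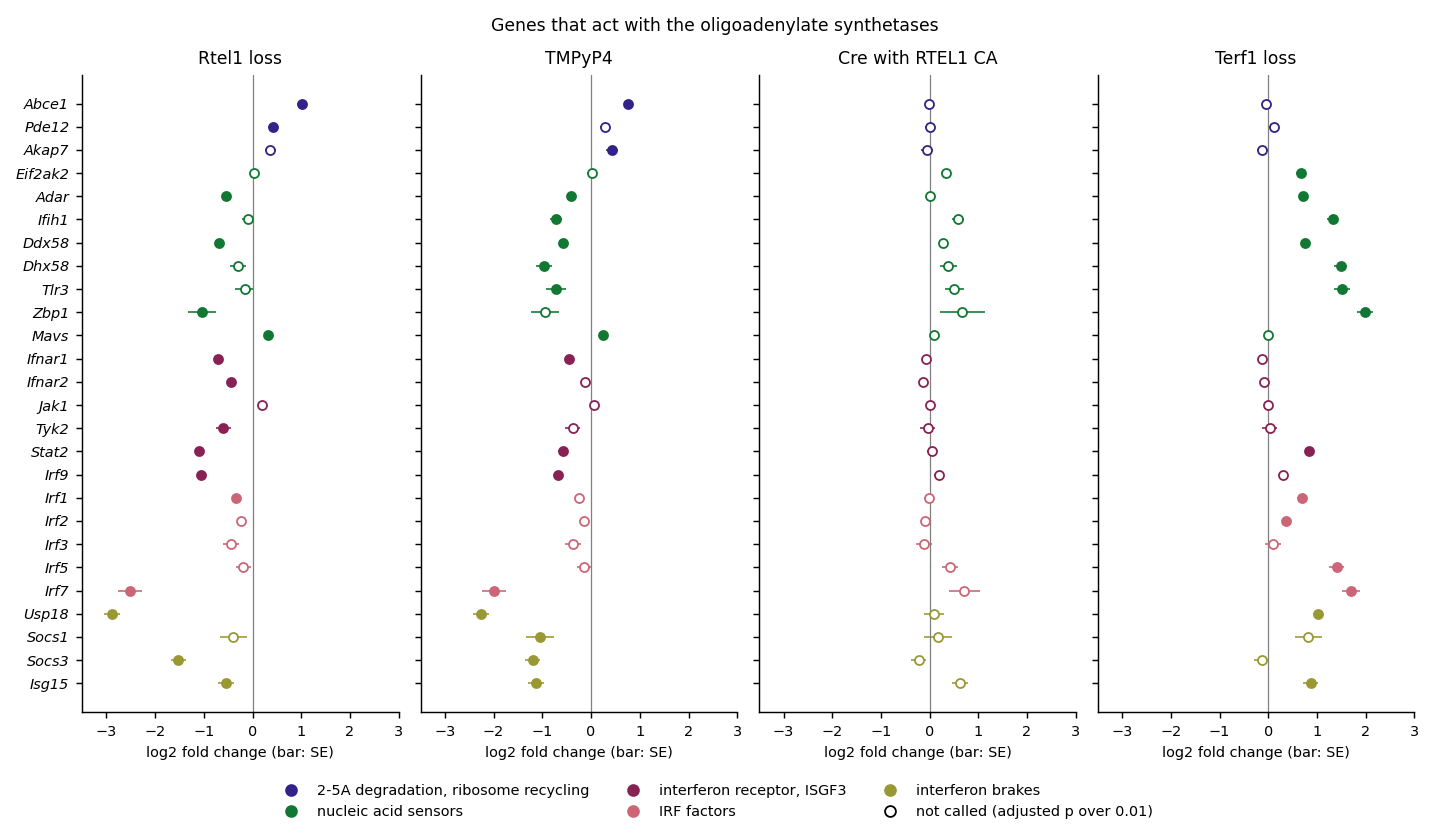
Log2 fold changes with SE of the 26 genes that act with the synthetases, in 4 comparisons, with filled points where the adjusted p is at most 0.01. After Terf1 deletion 14 points are called and all lie to the right, after Rtel1 deletion and with TMPyP4 13 of 16 called points lie to the left, and with RTEL1 CA no point is filled.

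The effect of Cre differed between the Terf1F/F and Rtel1F/F lines for 20 of the 26 genes by a test of the difference itself, 18 with the larger value in Terf1F/F cells, where 30.2% of all tested genes differed. Among members the differences in log2 effect were 2.81 (SE 0.23) for Oasl1 and 2.39 (SE 0.24) for Oasl2. All members but Oas1g were called, and nothing is read from this. For Oas1g, at 0 counts in every Rtel1F/F +GFP and +Cre library, the difference could not be estimated. Oas1a, Oas2 and Oas3 had no more than 8 counts in any of these Rtel1F/F libraries. Before Cre the lines differed for 20 of the 26 genes and for 54.9% of all tested genes. Of the 20, 17 were higher in Terf1F/F +GFP cells, with Usp18 furthest apart at 239 ± 16.4 against 3.47 ± 0.273 CPM (69.0-fold, log2 6.11, SE 0.14, adjusted p = 3.65e-16). Irf9 (5.25-fold) and Stat2 (7.37-fold) were higher as well, whereas Ifnar1 was lower (log2 -0.58, SE 0.06, adjusted p = 2.75e-07).

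The genes most like the members in pattern over the 21 libraries, by Pearson's r of log2 CPM with the mean centred log2 CPM of the members, were Ifit3 (r = 0.997), Ifit3b (0.997), Trim25 (0.996), Samd9l (0.996), Ddx60 (0.996), Apod (0.996), Serpina3n (0.995), Trim30a (0.994), Dtx3l (0.994) and Ifi203 (0.994). These values describe libraries that fall into 2 clusters, the lines, and within the lines they were 0.730 to 0.944 over the 15 Rtel1F/F libraries and 0.842 to 0.999 over the 6 Terf1F/F libraries. Likeness to the members over all libraries includes the difference after Terf1 deletion, so that the levels of the 10 genes there are a description. Ifit3, an interferon-stimulated RNA-binding protein gene, was at 459 CPM before and 1377 CPM after the deletion on average (log2 1.58, SE 0.14). Apod, which encodes a lipocalin, was at 19.1 and 63.9 CPM (log2 1.74, SE 0.21), and Serpina3n, a protease inhibitor gene, at 1.16 and 1.58 CPM (log2 0.45, SE 0.20).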

How the data were processed

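RNA of 21 MEF libraries, in 7 groups of 3 taken from the labels, had been sequenced. According to the submitters' processing notes, adaptors were removed by cutadapt 1.9.1, and RSEM 1.3.0, run with STAR 2.5.2a on mm10, gave the values of each gene. The authors deposited an expected count, as a whole number without normalization, and a TPM. Genes were tested in R 4.3.3 with edgeR 4.0.16 (TMM, filterByExpr by group, robust quasi-likelihood fit of all libraries with 14 residual degrees of freedom, two-sided test, Benjamini-Hochberg adjustment over 13719 genes) at an adjusted p of at most 0.01. Log2 CPM used a prior count of 2, and no fold was given where every library of both groups held 3 counts or fewer.

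Members and gene lists were chosen with earlier results of these data known. Named were the genes of the lists, except 2 that are not reported here, ligands that reached 10 counts and the 10 genes of most similar pattern. The alternatives tried were a fit by DESeq2 1.42.0, edgeR with DESeq2 size factors, other count filters, the compared groups alone, a replicate block, an adjusted p of 0.05, libraries left out in turn and, for members, log2(TPM + 0.1) or summed Oas1 counts. Same-numbered libraries were said to deviate together where all 3 correlations of their deviations from group means (11840 genes) exceeded 0.1. This held for RTEL1 CA +Cre and +GFP cells (0.86, 0.84 and 0.42) and for Rtel1F/F +Cre and TMPyP4-treated cells (0.72, 0.76 and 0.41). The numbers were the replicate numbers of the labels. The tests did not pair these libraries, except for the alternative with a replicate block over all groups. Sequences were read from RefSeq tables of GRCm38.p6, in which all 7 members were matched.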

Additional observations from a re-analysis of the deposited data

Results flagged for a closer look

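For 20 genes that act with the synthetases, the effect of Cre differed between Terf1F/F and Rtel1F/F cells by a test of the difference itself (edgeR, Terf1F/F minus Rtel1F/F, log2). Among the sensors the differences were 3.02 for Zbp1 (adjusted p = 1.42e-06), 1.78 for Dhx58 (2.68e-06), 1.67 for Tlr3 (5.88e-05), 1.46 for Ddx58 (3.22e-08), 1.41 for Ifih1 (5.24e-06), 1.26 for Adar (1.48e-08), 0.63 for Eif2ak2 (0.000791) and -0.32 for Mavs (0.00998). The receptor and ISGF3 genes gave 1.94 for Stat2 (3.73e-09), 1.36 for Irf9 (2.46e-07), 0.60 for Ifnar1 (4.82e-05) and 0.36 for Ifnar2 (0.00626). The IRF genes gave 4.21 for Irf7 (3.13e-08), 1.59 for Irf5 (1.72e-05), 1.02 for Irf1 (1.10e-05) and 0.60 for Irf2 (0.000320). The brakes gave 3.91 for Usp18 (5.53e-10), 1.41 for Isg15 (7.34e-05) and 1.39 for Socs3 (5.49e-05), and Abce1 gave -1.05 (6.24e-06). The calls of Mavs and Ifnar2 were lost in 12 and 14 of 19 alternatives. The Rtel1F/F +GFP libraries, which stood above the other Rtel1F/F libraries, are the control in these differences, and their part was not tested.

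Oas1a, Oas1b, Oas2, Oasl1 and Oasl2 were higher in every Terf1F/F +Cre library and lower in every Rtel1F/F +Cre library than in the matching +GFP libraries. Their log2 differences after Terf1 deletion were 1.27 for Oas1a, 0.99 for Oas1b, 1.74 for Oas2, 2.28 for Oasl1 and 1.09 for Oasl2. These opposite directions are a description, since the levels chose the members, and no p-value is given for the difference between the lines. The share of all genes that moved in this way was not counted. Counts were near the limit of detection in the Rtel1F/F line for Oas1a, at 0, 0 and 0 after Cre against 3, 7 and 8. The same held for Oas2, at 1, 0 and 0 counts against 6, 3 and 4.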

How the results depend on the processing

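The number of genes called among the 26 that act with the synthetases moved by over 1.5 times in 2 comparisons. With Cre in RTEL1 CA cells it was 0 in edgeR, 2 in DESeq2 and 2 at an adjusted p of at most 0.05. Rtel1 deletion against TMPyP4 gave 6, but 0 when only these groups were fitted and 2 to 5 with 1 library left out, lowest without Rtel1F/F +Cre replicate 3 or TMPyP4 replicate 3. With a library left out, the counts were 13 to 15 after Rtel1 deletion, 12 to 14 with TMPyP4, 12 to 13 after Terf1 deletion, 18 to 20 for RTEL1 CA before Cre, 0 to 0 for Cre in RTEL1 CA cells, 18 to 20 for the difference in Cre effect and 15 to 20 between the lines. With a replicate block they were, for Rtel1 deletion, TMPyP4, Cre in RTEL1 CA cells, Terf1 deletion, Rtel1 deletion against TMPyP4, RTEL1 CA before Cre, the difference in Cre effect and the lines, 19, 18, 0, 15, 7, 22, 25 and 20. The block moved none of these counts by over 1.5 times. Same-numbered libraries deviated together in the 2 comparisons named in the methods. In the others the lowest correlation was -0.02 for Rtel1 deletion, 0.02 for TMPyP4, -0.10 for Terf1 deletion, 0.03 for RTEL1 CA before Cre and -0.09 between the lines. The difference in Cre effect for Ifnb1 (log2 2.89, at 0 to 3 counts in Rtel1F/F cells) ranged from -0.12 without Rtel1F/F +GFP replicate 3, where it reversed, to 5.63 without Rtel1F/F +Cre replicate 1. Of single values, 550 of members moved by less than the replicate spread and 77 by more, and of the genes that act with them 1455 kept direction and call and 143 lost a call. The causes were not tested. Depth limits Oas1a, Oas1b, Oas1g, Oas2 and Oas3 in the Rtel1F/F line, where at most 5 of the 15 libraries held over 3 counts of any of them.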
